A study of Mus musculus with 2 samples.

Results

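Retnla, Arg1, Chil3, Mrc1, Mgl2, Clec10a, Ccl24 and Cd209a are genes used to recognise alternative activation, the state that the cytokines IL-4 and IL-13 induce in mouse macrophages and related cells. They were read here in dendritic cells grown from mouse bone marrow (BMDCs). The 8 genes were chosen by name with earlier results of these data known, and every non-control probe whose transcript accession belongs to one of them was followed. They had 11 probes printed in 20 spots, among 56605 non-control probes that covered 23786 named genes.

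RNA of 1 culture labelled EGR1-deficient and of 1 culture labelled wild type (WT) was hybridised to 1 one-colour Agilent array each, in a series on lactate and inflammation in dendritic cells. Both samples carry the labels male and C57BL/6J. Femoral marrow cells were grown in MEM with 10% FBS and 10 ng/ml GM-CSF, a growth factor that yields dendritic-like, macrophage-like and granulocytic cells side by side, and were collected on day 6. No other agent is named in the labels, IL-4 included. The genotype label of the first culture is Egr1-deficient, and its sample title calls it an EGR1 knockout (KO). How the Egr1 allele was altered and the number of mice are not given in the sources used here.

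Alternative activation runs through the receptors for IL-4 and IL-13, which activate the kinases JAK1 and JAK3 or TYK2 and then the transcription factor STAT6. STAT6, with partners such as C/EBP-beta, PPAR-gamma and IRF4, turns on secreted proteins (RELM-alpha, Ym1, eotaxin-2), the enzyme arginase and a set of C-type lectin receptors. In GM-CSF cultures several of these genes are also made without added IL-4, and Mgl2 and Cd209a are known markers of dendritic cell subsets.

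With 1 array per label there were no replicates, no p-value was computed, and every difference below describes these 2 arrays. Of 59305 non-control spots, 59.8% were well above background in the EGR1-deficient-labelled culture and 55.2% in the WT culture, by the scanner program's call. Expression values are log2 processed signal minus the array's 75th percentile, and each difference is EGR1-deficient minus WT. The SD between spots printed with 1 probe was 0.06 log2 units at the median, on either array. Between the differences from 2 probes for a gene, the SD was 0.17 at the median and 0.31 as a root mean square. Egr1 itself read 1212 in the EGR1-deficient-labelled culture and 380 in the WT culture (difference 1.61, 1 probe). That is the opposite of a loss of Egr1 RNA. The sources used here state neither how the allele was altered nor where the probe lies relative to the altered part. Whether the reading goes against the label therefore cannot be told, and the direction of every comparison rests on the labels as given. Xist read 4559 and 3425 in the EGR1-deficient-labelled and the WT culture, and 1 of 7 probes for 4 Y-linked genes was well above background on either, which goes against the male label of both.

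The 8 genes fell into a group with lower signal and a group with little difference, with Mgl2 between them. The secreted effectors Retnla, Chil3 and Ccl24 and the enzyme gene Arg1 were lower in the EGR1-deficient-labelled culture, by 1.81-fold to 10.1-fold. In RNA of whole cultures, fewer cells of a type and less RNA per cell cannot be told apart. The lectin receptors Mrc1, Clec10a and Cd209a differed by less than the scanner program's own error, and Mgl2 was lower by an amount that depended on the probe. All 8 genes had a probe well above background on both arrays. Among them 3 were 2-fold or more lower in the EGR1-deficient-labelled culture, where 1.01% of the 13725 genes measured on both arrays were, and 4 were 1.5-fold or more lower, against 4.17% of all genes. None was 2-fold or more higher, against 0.707% of all genes, or 1.5-fold or more higher, against 3.51%. The split of all genes at 2-fold, 97 higher and 138 lower, was 77 and 174 with quantile normalization, 75 and 176 with loess, and 103 and 68 in the authors' series table. The median difference over the 8 genes was −0.55 and over all 13725 genes −0.05. Because the genes were chosen with these differences known, the counts describe them and support nothing further.

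**Figure D1:**
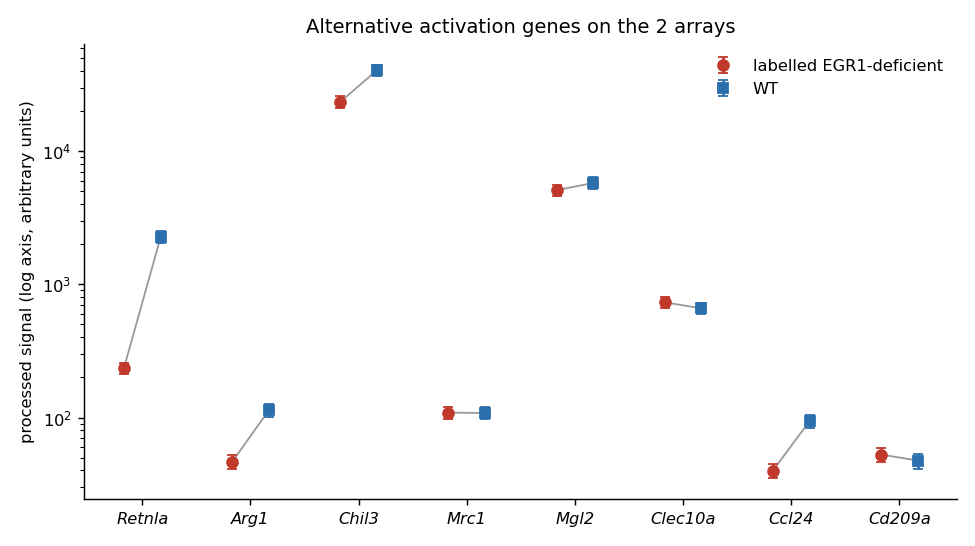
Processed signal (log axis, arbitrary units) of the representing probe of each gene in the EGR1-deficient-labelled culture (circles) and the WT culture (squares), with the scanner program's error as bars. Retnla, Arg1, Chil3 and Ccl24 lie lower in the EGR1-deficient-labelled culture, and Mrc1, Clec10a and Cd209a lie within the bars of each other. Signals of different genes come from different probes and are not set against each other.

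Retnla, which encodes RELM-alpha, a small secreted protein of alternatively activated macrophages and of eosinophils, showed the widest gap of the 8. Its single probe read 235 ± 24 in the EGR1-deficient-labelled culture and 2269 ± 227 in the WT culture (± is the scanner program's error of the spot). The 2 readings are far outside each other's error, at a difference of −3.34 ± 0.21 log2 units, or 10.1-fold lower. Only 2 of 13725 genes had a lower difference. The spot was clear of its surroundings on both arrays: the median pixel was 266 over a local background of 46 in the EGR1-deficient-labelled culture, and 2126 over 43 in the WT culture. It sits near an array edge, in column 162 of 164, at the same place on both. The 50 nearest spots measured on both arrays had a median difference of −0.05, with values between −0.54 and 1.25.

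Among genes of similar brightness Retnla was lowest as well. When the 13725 genes were divided by mean signal into 5 groups of 2745, no gene in its group lay below it, and 0.328% of that group were 2-fold or more lower. The 4 genes nearest to it in difference, over 2 arrays and among 9613 genes compared, were Rbm41, Hoxc5, Tdpoz1 and Pcdhb15. Their distances from Retnla were 0.27, 0.43, 0.44 and 0.64 log2 units. Each rests on 1 probe, which read between 22.1 and 58.1 in the EGR1-deficient-labelled culture. The lowest signal called well above background there was 13.3, and Arg1 (46.3) and Ccl24 (39.9) read within the same range.

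**Figure D2:**
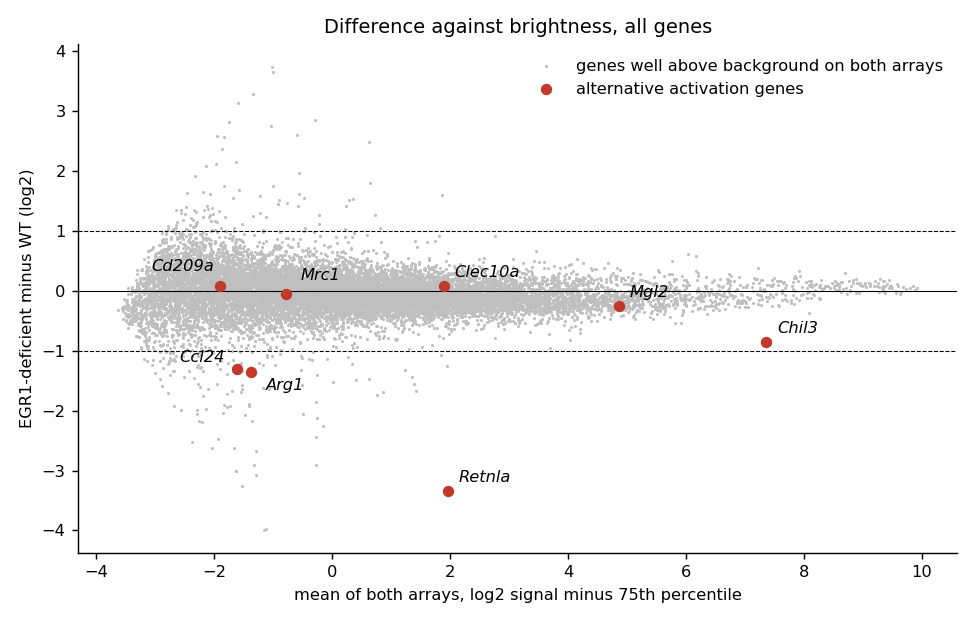
Difference (EGR1-deficient minus WT, log2) against the mean of both arrays (log2 signal minus the 75th percentile) for the 13725 genes well above background on both arrays, with the 8 genes as large points. Dashed lines mark 2-fold. Retnla (−3.34) and Chil3 (−0.86) lie below nearly all genes of like brightness. Arg1 (−1.36) and Ccl24 (−1.30) do too, among dimmer genes, which scatter more widely. In their brightness group of 2745 genes, 24 lay below Arg1 and 28 below Ccl24.

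The other RELM genes showed no such gap. The family's genes encode small cysteine-rich secreted proteins, and Retnlb and Retnlg flank Retnla in the RefSeq gene order. Retnlg, expressed by neutrophils, read 369 in the EGR1-deficient-labelled culture and 369 in the WT culture (−0.07). Retn, which encodes resistin, read 86.7 in the EGR1-deficient-labelled culture and 77.2 in the WT culture in 1 probe (0.10), and its other probe was not well above background in either culture. Retnlb, the gut family member, was not well above background in either culture.

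RefSeq promoter windows (GRCm38.p6, 250 bases before to 50 after the gene's start) are shown for Retnla beside its flat neighbour Retnlg, and for Chil3 beside its near copy Chil4, since these pairs let the sequence be read against the values. Such windows were found for 5 of the 8 genes (Retnla, Chil3, Mrc1, Mgl2 and Cd209a), and none for Arg1, Clec10a and Ccl24. Capitals mark matches, on either strand, to a STAT6 motif (TTCNNNNGAA), a STAT motif with a 3-base spacer (TTCNNNGAA), a C/EBP motif (TTNNGNAA), an EGR motif (GCGNGGGCG) and a TATA box (TATAAA). Overlapping matches run together. Retnla lies at chr16:48842359-48842658 (plus strand), Retnlg at chr16:48872358-48872657 (plus), Chil3 at chr3:106167515-106167814 (minus) and Chil4 at chr3:106219430-106219729 (minus).
Retnla: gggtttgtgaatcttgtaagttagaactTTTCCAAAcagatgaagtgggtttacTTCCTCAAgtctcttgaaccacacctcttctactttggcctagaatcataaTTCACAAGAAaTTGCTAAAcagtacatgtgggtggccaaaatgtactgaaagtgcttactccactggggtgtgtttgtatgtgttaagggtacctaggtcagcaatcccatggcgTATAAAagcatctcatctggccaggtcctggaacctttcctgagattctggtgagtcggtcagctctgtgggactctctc
Retnlg: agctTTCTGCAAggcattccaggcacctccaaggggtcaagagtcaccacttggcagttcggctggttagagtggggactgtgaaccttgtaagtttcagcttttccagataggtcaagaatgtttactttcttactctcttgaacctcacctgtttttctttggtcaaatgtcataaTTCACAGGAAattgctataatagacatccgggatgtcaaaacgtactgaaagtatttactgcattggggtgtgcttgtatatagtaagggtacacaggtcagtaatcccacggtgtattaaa
Chil3: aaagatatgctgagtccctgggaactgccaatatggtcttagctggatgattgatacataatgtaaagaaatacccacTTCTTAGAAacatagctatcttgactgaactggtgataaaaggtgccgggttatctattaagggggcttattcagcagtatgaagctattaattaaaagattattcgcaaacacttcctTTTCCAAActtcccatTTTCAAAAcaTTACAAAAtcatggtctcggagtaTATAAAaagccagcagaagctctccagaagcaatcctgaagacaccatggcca
Chil4: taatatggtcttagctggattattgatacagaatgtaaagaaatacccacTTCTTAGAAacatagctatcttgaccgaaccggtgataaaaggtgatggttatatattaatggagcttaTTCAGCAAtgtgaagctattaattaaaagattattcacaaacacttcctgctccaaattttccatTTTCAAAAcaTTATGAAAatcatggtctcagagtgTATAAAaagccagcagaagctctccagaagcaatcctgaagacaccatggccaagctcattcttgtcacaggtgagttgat

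The Retnla window held 1 match to the STAT6 motif, TTCACAAGAA, whose first base is at −145 from the gene's start. STAT6 and C/EBP are known to act at the Retnla promoter in IL-4-treated mouse macrophages. A C/EBP match began at −134, just after it, and 2 more lay at −222 and −196. The window of Retnlg, whose signal was equal on both arrays, held a STAT6 match too, TTCACAGGAA at −72. Over the 226 bases that could be aligned, the windows of Retnla and Retnlg were 77.4% identical. In the Chil3 window the 3-base-spacer motif occurred once, as TTCTTAGAA at −172, and the same letters stood at −200 in the Chil4 window. The Chil3 and Chil4 windows were 93.0% identical over 270 aligned bases.

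Among all 32851 promoter windows, 6.95% held the STAT6 motif, 8.30% the 3-base-spacer motif, 40.7% the C/EBP motif, 5.55% the EGR motif and 13.6% the TATA box. Of the 5 windows found for the 8 genes, the STAT6 motif was in that of Retnla and the 3-base-spacer motif in that of Chil3. The C/EBP motif was in all 5, the TATA box in 3 (Retnla, Chil3 and, on the opposite strand, Cd209a) and the EGR motif in 0. The 6-letter PU.1 motif AGGAAG, which is not capitalised above, was in all 5 and in 35.4% of all windows, and in Retnla it overlaps the C/EBP match at −196. These are matches of letters within 300 bases and say nothing of binding here.

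Chil3 encodes Ym1, a chitinase-like lectin without chitinase activity that alternatively activated macrophages and neutrophils secrete. It read 23407 ± 2341 in the EGR1-deficient-labelled culture and 40560 ± 4056 in the WT culture, with no overlap of the errors. The difference was −0.86 ± 0.20, or 1.81-fold lower. Its probe lay in the brightest of the 5 groups of genes, in which none of 2745 genes was 2-fold or more apart in either direction, and Chil3 was second lowest there. Neither reading was marked as saturated. The 50 nearest spots measured on both arrays had a median difference of 0.01, with values between −0.88 and 0.65, so their lowest lay below Chil3.

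The chitinase-like relatives went both ways, and the higher ones were dim in the WT culture. Chil4, which encodes Ym2, read 397 in the EGR1-deficient-labelled culture and 723 in the WT culture, a difference of −0.93, close to that of Chil3. Chil3 and Chil4 are near-identical genes, the probe sequences are not used here, and how far each probe reads the other transcript was not tested. Chil1, which encodes the glycoprotein known as BRP-39, read 709 in the EGR1-deficient-labelled culture and 757 in the WT culture (−0.16). The true chitinase gene Chit1 was higher, at 134 in the EGR1-deficient-labelled culture and 54.5 in the WT culture (1.24), in 1 of 2 probes, and the other probe was not well above background. Chil5 read 43.9 in the EGR1-deficient-labelled culture and 20.2 in the WT culture (1.05). The lowest signal called well above background in the WT culture was 16.3. Chil6, Chia1 and Ctbs were not well above background in either culture.

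Arg1 encodes arginase 1, which splits arginine into ornithine and urea and so competes with nitric oxide synthase for its substrate. Its probe read 46.3 ± 5.6 in the EGR1-deficient-labelled culture and 113 ± 12 in the WT culture. The difference was −1.36 ± 0.23, or 2.56-fold lower, and the errors did not overlap. Both readings are dim: the median pixel was 100 over a local background of 38.5 in the EGR1-deficient-labelled culture, and 156 over 38 in the WT culture. In its brightness group, the second lowest of 5, 1.57% of genes were 2-fold or more lower, and 24 of 2745 genes lay below Arg1. With normexp background correction, which adds an offset of 50 to every spot, the difference was −0.63. Differences of the 50 spots nearest to Arg1 had a median of −0.03 and lay between −0.51 and 0.58.

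Arg2, which encodes the mitochondrial arginase, was lower as well, at 18.7 in the EGR1-deficient-labelled culture and 40.9 in the WT culture (−1.20, 1 probe). The lower reading is near background, since 13.3 was the lowest signal called well above background there. Arg1 aside, 22 genes of arginine and polyamine metabolism were measured on both arrays, and 16 were below 0, with a median of −0.12, where 57.4% of all genes were below 0. At 1.5-fold or more, 2 of them were lower (Arg2 and the arginine transporter gene Slc7a2, −0.61) and none higher, against 4.17% and 3.51% of all genes. Slc7a2 read 723 in the EGR1-deficient-labelled culture and 1056 in the WT culture. Nos2, the inducible nitric oxide synthase gene that uses the same substrate, read 234 in the EGR1-deficient-labelled culture and 202 in the WT culture (0.14). Srm, a spermidine synthase gene, was at −0.51 in its brightest probe and 1.21 in another, so its probes disagreed in sign. Sms, of the same list, was at −0.23 in its brightest probe and −1.70 in another, so its probes disagreed in size.

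Ccl24 encodes eotaxin-2, which attracts eosinophils through the receptor CCR3. It read 39.9 ± 4.9 in the EGR1-deficient-labelled culture and 94.0 ± 10.0 in the WT culture. The difference was −1.30 ± 0.23, or 2.47-fold lower, with errors that did not overlap, and with normexp it was −0.66. Its probe lay in the same brightness group as that of Arg1, where 28 of 2745 genes lay below Ccl24. Differences of the 50 spots nearest to Ccl24 had a median of −0.13 and lay between −1.33 and 0.70, so their lowest lay below Ccl24. The other CCR3 ligands that could be read were lower too. Ccl11, the eotaxin-1 gene, read 15.8 in the EGR1-deficient-labelled culture and 29.4 in the WT culture (−0.96), near background on both. Ccl5 read 10213 in the EGR1-deficient-labelled culture and 12850 in the WT culture (−0.40), and Ccl7 was well above background in the WT culture alone, at least 1.68-fold lower in the EGR1-deficient-labelled culture. Ccl8 was not well above background in either culture. Ccr3 was above background in the EGR1-deficient-labelled culture alone, at least 1.45-fold higher there.

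The lectin receptors Mrc1, Clec10a and Cd209a differed little. Mrc1 encodes CD206, the mannose receptor that takes up glycoproteins. It read 109 ± 11 in the EGR1-deficient-labelled culture and 108 ± 11 in the WT culture, a difference of −0.06 ± 0.21. Clec10a, which encodes the galactose-binding lectin CD301a, read 733 ± 73 in the EGR1-deficient-labelled culture and 661 ± 66 in the WT culture (0.08 ± 0.20). Cd209a, the mouse gene closest in use to human DC-SIGN, read 52.7 ± 6.2 in the EGR1-deficient-labelled culture and 47.5 ± 6.1 in the WT culture (0.08 ± 0.25). Second probes of Clec10a and Cd209a were not well above background in either culture. For these 3 genes the readings of the arrays overlapped within error, which does not show that the levels were equal. The sign at Mrc1 turned positive without scaling (0.01), with the percentile taken over spots above background on both arrays (0.01) and in the authors' series table (0.06). That at Cd209a turned to −0.01 with normexp and with plain background subtraction.

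Mgl2, which encodes CD301b, the second mouse galactose-type lectin, was the only one of the 8 genes with 2 probes above background on both arrays, and they gave different sizes. The probe printed 10 times read between 4868 and 5288, with a median of 5110, in the 7 spots used in the EGR1-deficient-labelled culture, where 3 further spots were marked as outliers and left out. It read between 5391 and 6120, with a median of 5827, in 10 spots in the WT culture. No spot in the EGR1-deficient-labelled culture reached the WT range, before scaling or after it, and the difference of means was −0.25, or 1.19-fold lower. Spots of 1 array repeat the same labelled RNA and are not replicates of a genotype. The other probe read 292 ± 29 in the EGR1-deficient-labelled culture and 470 ± 47 in the WT culture, a difference of −0.75 ± 0.20 (1.69-fold lower). Over all genes, 23.3% had a difference below that of the repeated probe and 2.08% below that of the other.

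Mgl2, Clec10a, Asgr1 and Asgr2 lie next to each other in the RefSeq gene order and encode related galactose-binding lectins. The asialoglycoprotein receptor genes were higher, Asgr1 at 35.3 in the EGR1-deficient-labelled culture and 18.5 in the WT culture (0.86) and Asgr2 at 448 in the EGR1-deficient-labelled culture and 286 in the WT culture (0.58). Ly75, the DEC-205 gene of the mannose receptor family, was at 0.53, and Pla2r1 was above background in the EGR1-deficient-labelled culture alone, at least 3.06-fold higher there. Of the Cd209a relatives, Cd209d was at 0.19, Cd209g at −0.23 and Cd209c at −0.31, and Cd209b, Cd209e and Cd209f were not well above background in either culture, nor was Mrc2. Leaving out the 4 lectin genes among the 8, 4 of 6 measured relatives were above 0 and 2 below it, where 57.4% of all genes were below 0. The median of the 6 was 0.36.

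The signalling genes upstream of these markers had a median difference near that of all genes, while single genes differed in both directions. Stat6 read 1364 in the EGR1-deficient-labelled culture and 1362 in the WT culture (−0.06), and the shared receptor chain gene Il2rg was at −0.02. Il4ra, the IL-4 receptor alpha chain gene, read 4819 in the EGR1-deficient-labelled culture and 3579 in the WT culture (0.36), and another probe gave −0.34. Il4 was not well above background in either culture, and Il13 read 34.6 in the EGR1-deficient-labelled culture and 27.9 in the WT culture (0.25). Of 15 measured genes of IL-4 and IL-13 receptor signalling, 10 were below 0, against 57.4% of all genes, and the median was −0.06, close to that of all genes (−0.05). Cish, a feedback inhibitor gene of cytokine receptors, was the 1 gene 1.5-fold or more apart (0.62), followed by Jak1 (−0.56) and Socs1 (−0.38).

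The transcription regulators were mostly lower, with 14 of 17 below 0 and a median of −0.26, where 57.4% of all genes were below 0. At 1.5-fold or more, 4.17% of all genes were lower and 3.51% higher. Those 1.5-fold or more lower in the EGR1-deficient-labelled culture were Nr1h3, the liver X receptor alpha gene (−0.74), Egr2, an EGR family factor of alternatively activated macrophages (−0.65), and Ppargc1b, the PGC-1-beta gene (−0.61), and none was 1.5-fold or more higher. Pparg read 146 in the EGR1-deficient-labelled culture and 207 in the WT culture (−0.57). Kdm6b, a histone demethylase gene, was above background in the WT culture alone and at least 2.88-fold lower in the EGR1-deficient-labelled culture. Cebpb, the C/EBP-beta gene, was at −0.07, and Irf4 at −0.26, with another probe at 0.44.

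Other genes linked to alternative activation were below 0 in 16 of 21 cases, against 57.4% of all genes, with a median of −0.37. At 1.5-fold or more, 7 were lower and none higher, against 4.17% and 3.51% of all genes. The ribonuclease genes Rnase2a, listed as Ear11 in older naming, and Ear2 were furthest. Rnase2a read 289 in the EGR1-deficient-labelled culture and 875 in the WT culture (−1.66), and Ear2 read 176 in the EGR1-deficient-labelled culture and 468 in the WT culture (−1.47). They belong to a family of near-identical copies whose probes may share transcripts. The transglutaminase gene Tgm2 read 2349 in the EGR1-deficient-labelled culture and 3961 in the WT culture (−0.82). In that list Cd163, Lyve1, Folr2 and Vsig4, markers of tissue macrophages, were not well above background in either culture, nor were Ccl8, Cdh1 and Flt1.

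Genes of classical activation, the state that interferon-gamma and microbial products induce, were also mostly lower. They were below 0 in 16 of 21 cases, against 57.4% of all genes, with a median of −0.37, which was −0.22 with quantile normalization. At 1.5-fold or more, 4 were lower and 1 higher, against 4.17% and 3.51% of all genes. Socs3, a feedback inhibitor gene, was at −0.84, Il6 at −0.80 (another probe −0.58) and the cyclooxygenase gene Ptgs2 at −0.67. Ido1, which encodes a tryptophan-degrading enzyme, was higher, at 68.7 in the EGR1-deficient-labelled culture and 29.4 in the WT culture (1.16). No difference between the lists was tested.

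**Figure D3:**
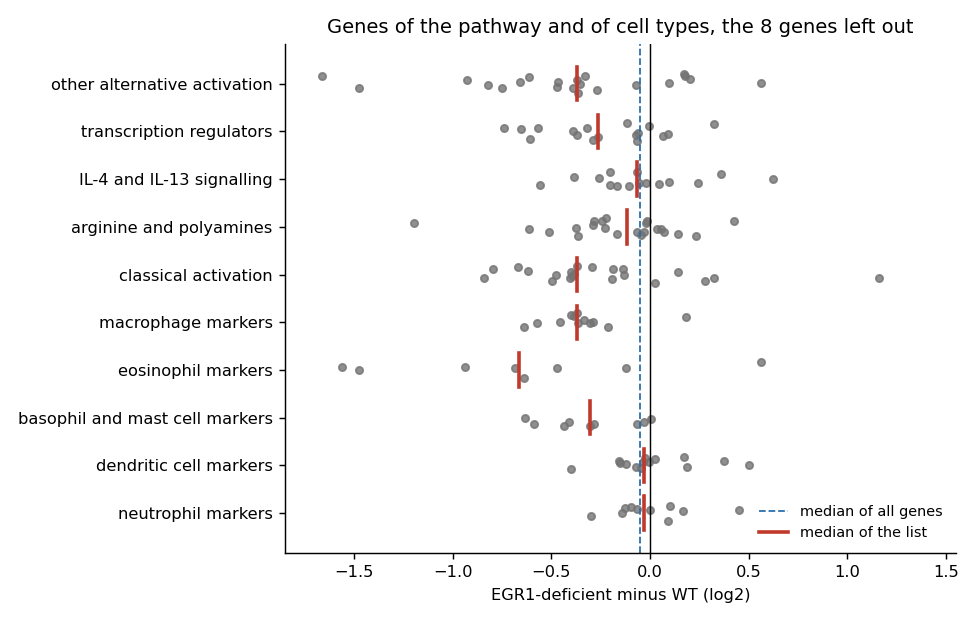
Differences (EGR1-deficient minus WT, log2) of single genes (points) in lists of the pathway and of cell type markers, the 8 genes left out, with each list's median as a red bar and the median of all genes as a dashed line. The medians of other alternative activation genes, classical activation genes and macrophage markers lie at −0.37 on the 75th percentile scale, that of eosinophil markers at −0.66, and those of dendritic cell and neutrophil markers at −0.03.

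Most markers of macrophages, and most but not all of eosinophils, were lower beside these genes. Of 12 macrophage markers, 11 were below 0, against 57.4% of all genes, with a median of −0.37. At 1.5-fold or more, 1 of the 12 was lower and none higher, against 4.17% and 3.51% of all genes. The share below 0 over all genes is not matched for brightness. The median difference was 0.02 in the dimmest of the 5 groups of genes and −0.10 in the brightest. The summed signal of the 12 markers was 89494 in the EGR1-deficient-labelled culture and 108229 in the WT culture. Of 8 eosinophil markers measured on both arrays, 7 were below 0 with a median of −0.66, and over all 9 the summed signal was 2507 in the EGR1-deficient-labelled culture and 4292 in the WT culture. The furthest of them were Ear1 (−1.56) and Ear2 (−1.47), members of the family of near-identical copies, while the granule protein genes Prg2 and Epx were at −0.69 and −0.64. The receptor genes Siglecf and Il5ra were at −0.47 and −0.12, the lipoxygenase gene Alox15 at 0.56, and Ccr3, as above, was at least 1.45-fold higher in the EGR1-deficient-labelled culture. The eosinophil list shares Ear2 and Alox15 with the list of other alternative activation genes. Of 9 basophil and mast cell markers, 8 were below 0 with a median of −0.30 (summed signal over 11 genes 5541 in the EGR1-deficient-labelled culture and 6748 in the WT culture), and Fcer1a and Il4 were not well above background on either. Dendritic cell markers had 9 of 14 below 0 and a median of −0.03, with a summed signal of 58833 in the EGR1-deficient-labelled culture and 58617 in the WT culture. All 14, the defining genes Itgax, Flt3 and Zbtb46 among them, were well above background on both arrays. Neutrophil markers had 5 of 10 below 0 and a median of −0.03 (summed signal 68426 in the EGR1-deficient-labelled culture and 61504 in the WT culture). Summed signals are not scaled between the arrays, and the brightest genes weigh most in them. In the EGR1-deficient-labelled culture the macrophage marker Apoe read 45773, the neutrophil marker S100a9 38540 and the eosinophil marker Prg2 1542. The sums are therefore not totals of a cell type. Monocyte markers had 5 of 7 below 0 and a median of −0.16, lymphoid markers 4 of 10 and 0.10, and stromal and osteoclast markers 2 of 4 and 0.30. The part of cell composition in the lower Retnla, Chil3, Arg1 and Ccl24 was not tested.

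The direction at the 4 lower genes held across the processing alternatives that could read them, but the size did not in every case. Retnla lay between −3.34 and −3.04 in 10 alternatives, and Chil3 between −0.86 and −0.73 in 11. Arg1 lay between −1.41 and −0.63 and Ccl24 between −1.36 and −0.66, in 9 alternatives each. The authors' series table lists no spot of Retnla, Arg1 or Ccl24, although all were well above background on both arrays. Of 31794 such spots it leaves out 2498. Among the 12929 whose lower signal was at or above that of Retnla it leaves out 8, and Retnla is one of them. The sources used here do not state why.

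**Figure D4:**
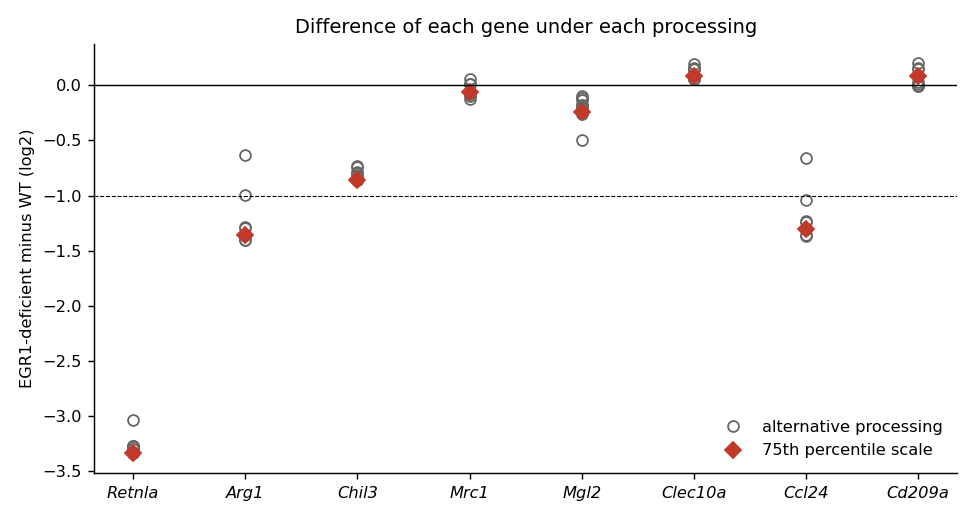
Difference (EGR1-deficient minus WT, log2) of each of the 8 genes on the 75th percentile scale (diamonds) and under each alternative that could read it (open circles), with 2-fold lower dashed. Retnla stays below −3, Chil3 between −0.86 and −0.73, and Arg1 and Ccl24 reach −0.63 and −0.66 with normexp.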

How the data were processed

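The authors deposited linear spot intensities, 1 scanner table per array. Agilent Feature Extraction 12.1.0.3 and an array design of build mm9 stand in the file headers, and 11.5.1.1 is the version in the submitters' processing notes. Per the file headers, background subtraction and detrending had been applied to the processed intensity. Both arrays share a slide and a scan. The series table that the authors deposited holds the same intensities multiplied by 1 constant per array (6.18 for EGR1-deficient and 5.97 for WT, with column medians of 1205 and 1114), so it is linear and uncentred, and the origin of the constants is unknown.

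The processed signal was divided by its 75th percentile among non-control spots of the array (191.6 for EGR1-deficient and 183.0 for WT) and log2 transformed. Spots marked as outliers (77 and 79) were left out, and repeated spots were averaged. Probes were named through their accession in RefSeq genes of GRCm38.p6, and the probe of highest mean signal stood for a gene. A gene well above background on 1 array was given an at-least fold against the higher of the dim reading and the lowest signal well above background there (13.3 and 16.3).

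The 8 genes, the lists and the motifs were chosen with earlier results of these data known. Named by rule were the 8 genes, Egr1, all genes of the RELM, chitinase-like and lectin families, up to 4 genes of each list with the largest difference, the largest at-least fold of a list, and the 4 genes nearest to Retnla with a full symbol and a signal at or above the 25th percentile. Other genes named were picked after their values were seen, as genes of known role in the pathway. Alternatives comprised quantile, loess and normexp (offset 50) processing in limma 3.58.1 under R 4.3.3, among others. The scanner files hold no mean spot signal, so median spot signal took its place in the background alternatives. The counting step was tested on simulated data. Only 1 array per group limits the precision, and no test was run. Scripts used Python 3.11.15 and pandas 2.3.3.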

Additional observations from a re-analysis of the deposited data

How the results depend on the processing

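Of 11 alternatives, 1 (outlier spots kept) was chosen after seeing the data. The median over the 8 genes was −0.55 and 3 were 2-fold or more lower. With normexp 1 gene was 2-fold or more lower, because the dim Arg1 and Ccl24 shrank to −0.63 and −0.66, and with plain background subtraction Arg1 was at −0.996. With the stricter filter on dim probes, which leaves 5 of the 8 genes and drops Arg1 and Ccl24, the median was −0.25 and 1 gene was 2-fold or more lower. In the authors' series table, which also holds 5 of the 8, the median was 0.058, 0 genes were 2-fold or more lower, and the median of all genes was 0.064, against −0.05 on the 75th percentile scale. In the remaining 8 alternatives the median lay between −0.68 and −0.42 and 2 or 3 genes were 2-fold or more lower. With the mean of its probes, Mgl2 was at −0.50.

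Over all genes the split at 2-fold, 97 higher and 138 lower, was 77 and 174 with quantile normalization, 75 and 176 with loess, 103 and 68 in the series table, 1280 and 971 without the filter on dim probes, 18 and 33 with normexp, 38 and 74 with plain background subtraction and 16 and 27 with the stricter filter. The chitinase-like list had a median of −0.16, and −0.86 with the stricter filter. That filter keeps 3 of its 5 genes (Chil3, Chil4 and Chil1) and drops Chit1 and Chil5, which were higher. The single CCR3 ligand left by the filter, Ccl5, was at −0.40. With quantile normalization the median of IL-4 and IL-13 signalling genes was 0.05 and that of classical activation genes −0.22, against −0.36 for other alternative activation genes. Slide and scan could not be fitted as a block with 1 array per group. No paired analysis was possible because each group has 1 array. Arg1, Ccl24 and Cd209a are limited by signal over background.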

Other observations

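In the RefSeq gene order, Mgl2 and Clec10a are followed by 2 genes of the monocarboxylate transporter family, picked here after their values were seen. Slc16a11 read 26.4 in the EGR1-deficient-labelled culture and 103 in the WT culture, a difference of −2.03. Slc16a13 read 25.8 in the EGR1-deficient-labelled culture and 60.2 in the WT culture, a difference of −1.29. Each rests on 1 probe, dim in the EGR1-deficient-labelled culture, with 13.3 as the lowest signal called well above background there. Clec10a, the gene beside Slc16a11, differed by 0.08. Around Chil3 and Chil4, the gene order runs Pifo (0.61), Chil5 (1.05), Chia1, Chil3 (−0.86), Chil4 (−0.93), Chil6 and Dennd2d (0.19), with Chia1 and Chil6 not well above background in either culture.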
